A study of Gallus gallus with 45 samples.

Results

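The genes described here are the Wnt ligands, their receptors, the secreted proteins that enhance or block them and a few cell-internal components of the pathway, followed in the midbrain-level neural crest domain of the chick embryo. The rule that chose them uses gene symbols and no measured value, and takes the genes named WNT, FZD, SFRP, DKK or RSPO with a number, together with FRZB, WIF1, LRP5, LRP6, DRAXIN, NOTUM, PORCN, CTNNB1, AXIN1, AXIN2, LEF1, TCF7, TCF7L1 and TCF7L2. This gave 50 of the 18525 genes that remain after a filter which asks for over 5 reads in some library. Of these, 19 encode ligands, 10 receptors, 13 secreted modulators and 8 cell-internal components. A gene listed as DKK1 is described in the same annotation as dickkopf 4, so which DKK gene it is remains uncertain.

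Wnt proteins are secreted lipid-modified ligands that bind Frizzled receptors. In the canonical branch, binding together with the co-receptors LRP5 or LRP6 takes apart a destruction complex built on axin, so that beta-catenin (CTNNB1) accumulates and activates target genes with the nuclear factors LEF1, TCF7, TCF7L1 and TCF7L2, while other branches steer cell polarity and movement without beta-catenin. In vertebrate embryos Wnt signals act in the primitive streak, in the setting up of the neural plate border and again in the dorsal neural tube, where the neural crest arises.

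Tissue was dissected from wild-type embryos without any treatment, combined from several embryos per library, and its bulk RNA was sequenced in 45 libraries over 12 stages. At HH5 and HH6 (Hamburger-Hamilton stages, 4 libraries each) patches lateral to the primitive streak were taken. From 1ss to 7ss (somite stages) the neural plate borders or the tips of the neural folds were taken, and from 8ss to 10ss the dorsal part of the neural tube including crest cells as far as the front of migration. For the comparisons, HH7 stands for 1ss to 3ss (12 libraries), HH8 for 4ss to 6ss (11 libraries), HH9 for 7ss to 9ss (11 libraries, which span both kinds of dissection) and HH10 for 10ss (3 libraries). The shape of the dissected piece therefore changes with the stage, and stage and dissection cannot be told apart.

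The libraries held between 15.4 M and 30.5 M reads on genes, with a median of 22.9 M. Of the 50 Wnt genes, 34 had more than 3 reads in every library, whereas WNT7A, WNT7B, WNT9B, WNT10A and WNT16 had at most 3 reads in at least 23 libraries. Levels are given as counts-per-million (CPM), a gene's share of the reads of its library, scaled between libraries. They are not divided by gene length, so only libraries are compared and not genes. In bulk RNA, fewer cells of a type and less RNA per cell cannot be told apart. For LEF1, WNT3A and SFRP2, HH6 replicate 1 was the HH6 library nearest to those of HH5, but for RSPO3 it was not. The 8 libraries numbered 4 from HH5 to 7ss deviate from their stages in a shared direction (r between 0.187 and 0.526 over 28 pairs). The counts that rest on HH6 replicate 1 or on these 8 libraries are given with and without them. The labels call every sample neural crest, but the markers of this tissue differed between the stages. The summed level of 8 neural crest markers was 757 to 1231 CPM at HH10 and 161 to 307 CPM at HH5. The largest part of the HH5 sum was ETS1, with a mean of 160.5 CPM at HH5 and 129 CPM at HH10. TFAP2A also had a lower mean at HH10 (22.97 CPM) than at HH5 (28.8 CPM). The other markers had higher means at HH10 than at HH5. Among them, SOX10, FOXD3 and TFAP2B had HH5 means of 5.65, 0.336 and 1.43 CPM. FOXD3 had at most 3 reads in 7 libraries.

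The level of 38 of the 50 Wnt genes (76%) changed over the 12 stages (edgeR's quasi-likelihood test, Benjamini-Hochberg adjusted p below 0.05 over all genes). The same was found for 43.7% of all genes tested, and for 60.4% of the genes with a mean of at least 5 CPM at 1 stage or more, a level that 32 Wnt genes reached and at which 27 of them changed. Among the ligands 17 of 19 changed, among the receptors 6 of 10, among the secreted modulators 10 of 13 and among the cell-internal components 5 of 8. The means of the 38 genes were highest at different times. For 16 of them the highest mean was at HH5 or HH6, for 3 at 1ss to 3ss, for 6 at 4ss to 6ss and for 13 at 7ss to 10ss. The ligands were split in this way, with 7 highest at HH5 or HH6 and 7 at 7ss to 10ss among the 17 that changed. The stage of the highest mean was not tested. WNT5B, counted as early, had near-equal means at HH5 (7.24 CPM) and 9ss (7.08 CPM). WNT9B, also early, and WNT7A, late, had at most 3 reads in 41 and 37 libraries.

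**Figure D1:**
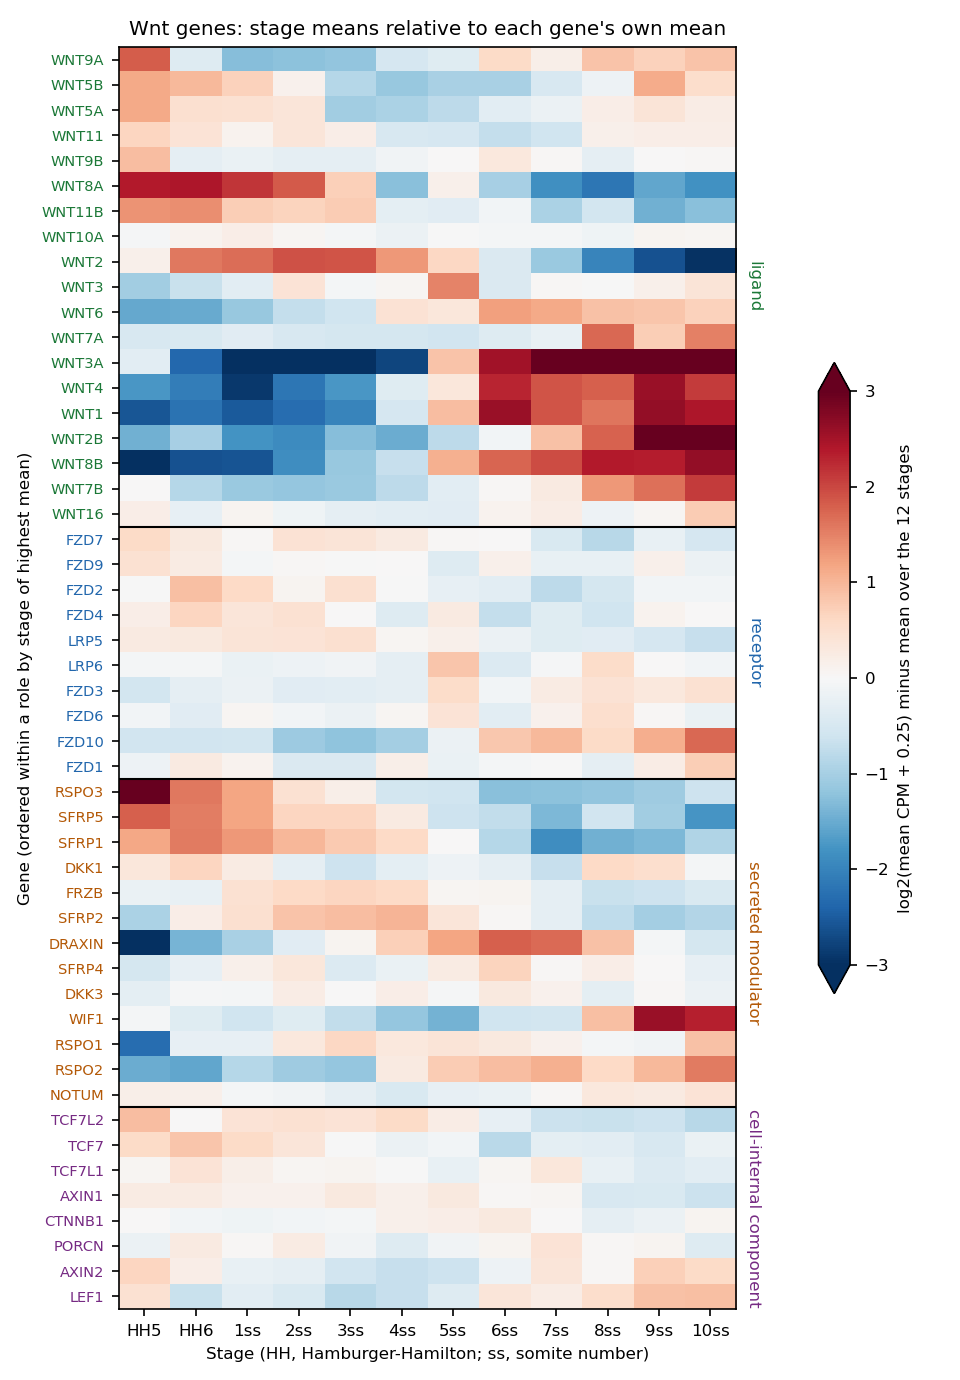
Colour shows the log2 mean CPM (plus 0.25) of each of the 50 Wnt genes at each of the 12 stages, minus the gene's own mean over the stages, with red above and blue below it; rows are grouped by role and ordered by the stage of the highest mean. WNT3A, WNT4, WNT1, WNT2B and WNT8B are blue until 3ss and red from 6ss or later, whereas WNT8A, RSPO3, SFRP5 and SFRP1 run from red to blue.

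Neighbouring groups of stages were compared next, and calls required an adjusted p below 0.05 together with a log2 fold change beyond 0.75 in either direction. In HH6 against HH5, 3 Wnt genes were higher (DRAXIN, RSPO1 and SFRP2), against 0.626% of all genes, and 2 were lower (RSPO3 and WNT9B), against 0.669%. In HH7 against HH6, 1 was higher (FRZB), against 0.103% of all genes, and 1 was lower (RSPO3), against 0.918%. In HH8 against HH7, 11 Wnt genes (22%) were higher and 9 (18%) lower, where 4.5% and 2.83% of all genes were called. In HH9 against HH8 the counts were 11 (22%) higher and 7 (14%) lower, where 3.5% and 3.57% of all genes were called.

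Most of the calls in these later steps were of ligands. In HH8 against HH7, 9 of 19 ligands were higher and 6 were lower, with a median log2 fold change of 0.95 over all ligands against 0.02 over all genes. Those higher included WNT7B (mean 0.189 CPM at HH8, 0.0068 at HH7) and WNT9B (0.0639 and 0.0031 CPM), the latter not called by DESeq2's Wald test. In HH9 against HH8, 8 ligands were higher, among them WNT7A (0.433 and 0.0142 CPM), and 2 were lower, with a median of 0.85 against -0.01. Both medians include ligands with few reads, whose fitted values depend on the prior count, and are not read as a shift of all ligands. Over the whole span, in HH10 against HH5, 15 Wnt genes (30%) were higher and 10 (20%) lower, where 7.2% and 9.8% of all genes were called.

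In HH10 against HH9, edgeR called 0 of the 50 genes, with 0.194% of all genes higher and 0.135% lower. DESeq2's Wald test called DRAXIN lower. At an unadjusted p below 0.05, 4 Wnt genes were higher and 4 lower. The share of all genes at that threshold was not worked out, so these counts are not read as an excess. Among these 8 genes were WNT2B, whose log2 fold change was 1.84 with a standard error (SE) of 0.51 and an adjusted p of 0.10, WNT2, with -1.58 (SE 0.55, adjusted p = 0.22), and DRAXIN, with -1.55 (SE 0.41, adjusted p = 0.078). HH10 has only 3 libraries, and HH9 pools 7ss to 9ss, so a change from 9ss to 10ss alone was not tested. Between these stages the mean of WNT3A went from 387 to 173 CPM and that of WNT2B from 13.7 to 26.8 CPM.

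Several calls around HH6 rested on single libraries, those of RSPO1 and RSPO3 in HH6 against HH5 excepted. When HH6 replicate 1 was left out, the counts in HH6 against HH5 were 4 higher and 5 lower, and those in HH7 against HH6 were 0 and 0. Without the 8 libraries numbered 4, they were 1 higher and 1 lower in HH6 against HH5, which were RSPO1 and RSPO3, and 0 and 0 in HH7 against HH6. The counts of the later comparisons stayed within 1.5 times in both cases.

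**Figure D2:**
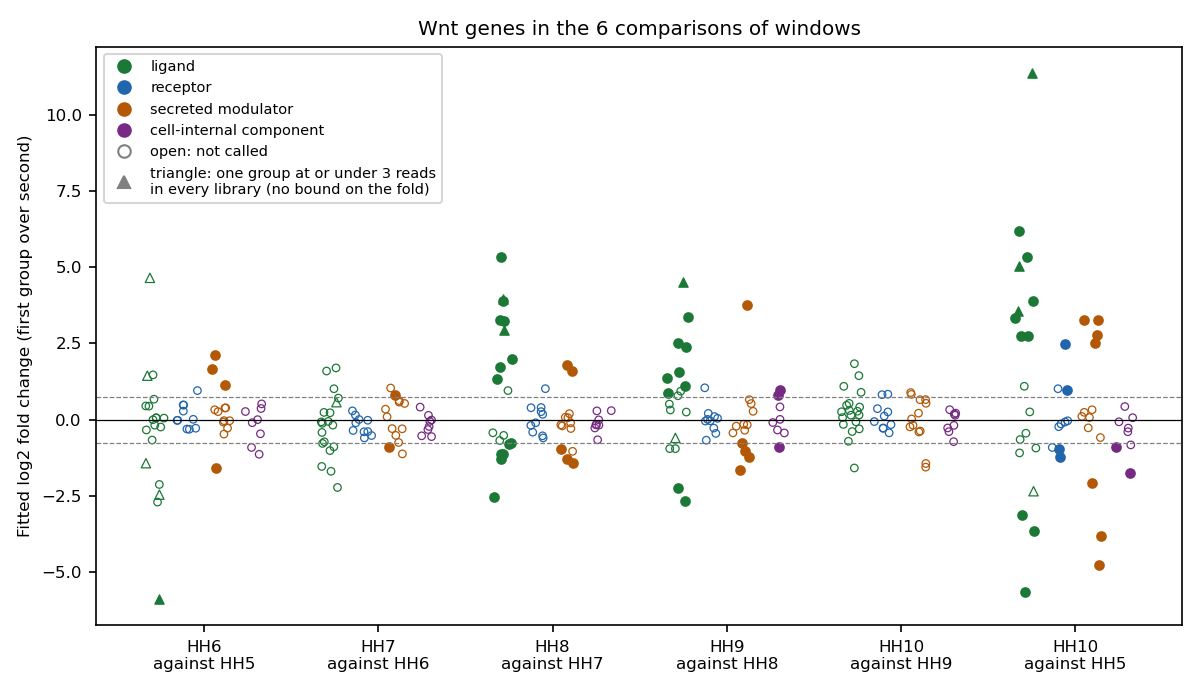
Each point is the fitted log2 fold change of a Wnt gene in 1 of the 6 comparisons of stage groups, coloured by role, filled where the gene was called and open where it was not; dashed lines mark 0.75 and -0.75. Triangles are genes for which no library of 1 of the groups exceeded 3 reads, whose fitted values depend on the prior count and are no measure of the fold. The filled points of HH8 against HH7 and HH9 against HH8 are mostly ligands (green), no point is filled in HH10 against HH9, and receptors (blue) are filled in HH10 against HH5.

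Among the ligands, WNT3A had the widest range of stage means. WNT3A is a canonical ligand of the primitive streak and later of the dorsal neural tube. Its level was 22.97, 12.7, 18.5 and 14.8 CPM at HH5, 9.32, 2.63, 1.04 and 3.02 CPM at HH6, and between 0.246 and 3.52 CPM (median 1.06) at HH7. It was between 0.796 and 141 CPM (median 32.0) at HH8, between 74.6 and 462 CPM (median 288) at HH9, and 185, 149.99 and 183 CPM at HH10.

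All HH7 libraries therefore lay below all HH5 libraries and all HH10 libraries above them, with the lowest mean, 0.822 ± 0.304 CPM (SD, n = 4), at 3ss and the highest, 387 ± 54.5 CPM (SD, n = 4), at 9ss. WNT3A rose in HH8 against HH7 (log2 fold change 5.32, SE 0.58, adjusted p = 7.7e-09), again in HH9 against HH8 (2.52, SE 0.50, adjusted p = 0.00031) and in HH10 against HH5 (3.32, SE 0.89, adjusted p = 0.0047). Within HH8 the stage mean was 2.96 ± 1.91 CPM at 4ss, 38.8 ± 23.9 CPM at 5ss and 124 ± 17.2 CPM at 6ss (SD, with 4, 4 and 3 libraries). The 4ss libraries had 5.45, 0.796, 2.67 and 2.93 CPM, beside 0.246 to 3.52 CPM (median 1.06) at HH7. After these levels had been seen, HH7 was also compared with HH5, where 6 Wnt genes were higher and 10 lower, with 2.41% and 6.65% of all genes called. WNT3A fell in this comparison (-3.82, SE 0.64, adjusted p = 2.4e-05).

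WNT1, the other canonical ligand known for its part in the dorsal midbrain and the expansion of the neural crest, had no early level to fall from. It measured 0.954, 0.958, 0.925 and 0.681 CPM at HH5, 0.563 to 2.16 CPM (median 0.935) at HH7, 1.62 to 56.3 CPM (median 12.8) at HH8, 15.9 to 51.5 CPM (median 23.5) at HH9, and 32.3, 52.4 and 22.9 CPM at HH10. The HH8 libraries overlapped the HH7 libraries only at their low end, and the HH10 libraries were all above those of HH5. WNT1 rose in HH8 against HH7 (log2 fold change 3.89, SE 0.39, adjusted p = 1.2e-09) and in HH10 against HH5 (5.34, SE 0.72, adjusted p = 2.2e-07).

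WNT4, a ligand known from kidney and gonad development, had 9.12, 11.6, 9.71 and 8.89 CPM at HH5, 2.64 to 11.5 CPM (median 7.01) at HH7, 16.1 to 218 CPM (median 38.2) at HH8, 60.5 to 278 CPM (median 158) at HH9, and 153, 187 and 94.0 CPM at HH10. Every HH8 library was above every HH7 library. WNT4 rose in HH8 against HH7 (log2 fold change 3.28, SE 0.36, adjusted p = 8e-09), in HH9 against HH8 (1.12, SE 0.34, adjusted p = 0.019) and in HH10 against HH5 (3.88, SE 0.65, adjusted p = 1.1e-05), and the second of these calls was lost without the 8 libraries numbered 4. HH8 pools stages of unlike level, with a stage mean of 165 CPM at 6ss. The 7ss libraries had 184.5, 158, 60.5 and 98.7 CPM, so the call in HH9 against HH8 does not show a rise from 6ss to 7ss.

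WNT8B, known as a ligand of the developing forebrain, had 0 reads in each of the 4 HH5 libraries and 0.0956, 0.219, 0.116 and 0.104 CPM at HH6. It then measured 0 to 1.14 CPM (median 0.291) at HH7, 0.453 to 11.5 CPM (median 2.96) at HH8, 5.40 to 15.5 CPM (median 11.1) at HH9, and 16.6, 14.4 and 12.3 CPM at HH10. The means were in rising order at each stage from HH5 to 8ss. WNT8B rose in HH8 against HH7 (log2 fold change 3.24, SE 0.42, adjusted p = 3.8e-07) and in HH9 against HH8 (1.35, SE 0.37, adjusted p = 0.0098). With 3 reads per library as the limit that 0 reads allow, it was at least 3.83-fold higher at HH7 than at HH5 (adjusted p of the fit = 0.0021).

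WNT2B, which is known from the rim of the developing retina, rose mainly at HH9. It had 0.458, 0.392, 0.462 and 0.151 CPM at HH5, 0 to 1.25 CPM (median 0.189) at HH7, 0.225 to 1.53 CPM (median 0.475) at HH8, 1.12 to 22.3 CPM (median 4.87) at HH9, and 38.7, 24.4 and 17.4 CPM at HH10. The HH10 libraries lay far above those of HH5, while those of HH8 and HH7 overlapped over most of their range. WNT2B rose in HH9 against HH8 (log2 fold change 3.35, SE 0.43, adjusted p = 2.2e-07) and in HH10 against HH5 (6.18, SE 0.81, adjusted p = 1.2e-07). Its smaller rise in HH8 against HH7 (1.33, SE 0.47, adjusted p = 0.047) was lost without any of 14 single libraries, between 1.18 and 1.84 over all libraries left out in turn.

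WNT2 and WNT8A ran the other way. WNT2, a ligand known from heart and lung development, had 4.85, 7.71, 6.78 and 5.11 CPM at HH5, 11.5, 17.3, 14.2 and 24.7 CPM at HH6, and 14.9 to 26.4 CPM (median 19.8) at HH7. It had 3.73 to 18.1 CPM (median 7.10) at HH8, 0.606 to 3.45 CPM (median 0.885) at HH9, and 0.348, 0.627 and 0.466 CPM at HH10. All HH7 libraries were above all HH5 libraries, and no HH9 library reached the lowest of HH8. WNT2 was higher in HH7 against HH5 (log2 fold change 1.71, SE 0.40, adjusted p = 0.0021), and it fell in HH8 against HH7 (-1.12, SE 0.26, adjusted p = 0.0025), in HH9 against HH8 (-2.67, SE 0.30, adjusted p = 1e-08) and in HH10 against HH5 (-3.66, SE 0.61, adjusted p = 1e-05).

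WNT8A, a ligand of the primitive streak and the posterior mesoderm in vertebrate embryos, had 6.18, 6.84, 8.40 and 6.66 CPM at HH5, 0.0421 to 8.42 CPM (median 4.70) at HH7, 0 to 3.36 CPM (median 0.396) at HH8, 0 to 0.525 CPM (median 0.130) at HH9, and 0.0348, 0 and 0.415 CPM at HH10. Its libraries scattered widely at HH7 and HH8. The HH10 and HH5 libraries did not overlap, whereas the neighbouring groups did. WNT8A fell in HH8 against HH7 (log2 fold change -2.53, SE 0.54, adjusted p = 0.00083) and in HH10 against HH5 (-5.66, SE 1.25, adjusted p = 0.00068). The fall in HH9 against HH8 (-2.25, SE 0.67, adjusted p = 0.016) was lost without 5ss replicate 1 (-1.57, adjusted p = 0.10).

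WNT5A and WNT5B, ligands best known for signalling without beta-catenin, fell and rose again. WNT5B had 8.01, 5.18, 5.67 and 10.1 CPM at HH5, 1.29 to 5.65 CPM (median 3.65) at HH7, 0.905 to 2.31 CPM (median 1.19) at HH8, 1.61 to 8.70 CPM (median 3.07) at HH9, and 3.94, 4.43 and 5.49 CPM at HH10. HH8 held the low point, and its libraries overlapped those on either side. Within HH7, the 3ss libraries already had 1.51, 2.28, 1.46 and 1.29 CPM. WNT5B fell in HH8 against HH7 (log2 fold change -1.28, SE 0.29, adjusted p = 0.0013) and rose in HH9 against HH8 (1.55, SE 0.29, adjusted p = 0.00015). WNT5A fell in HH8 against HH7 (-0.78, SE 0.26, adjusted p = 0.036), a call lost without any of 13 single libraries (-0.88 to -0.65). The lowest stage mean of WNT5A, 7.37 CPM, was however at 3ss, which is within HH7. WNT5A rose in HH9 against HH8 (0.86, SE 0.27, adjusted p = 0.021), a call lost without 9ss replicate 2 (0.75, adjusted p = 0.051). WNT11, which acts in cell movements of the gastrula in frog and zebrafish, fell in HH8 against HH7 (-0.80, SE 0.17, adjusted p = 0.001), and its log2 fold change was between -0.86 and -0.71 over the libraries left out in turn, short of the fold threshold without 4 of them.

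**Figure D3:**
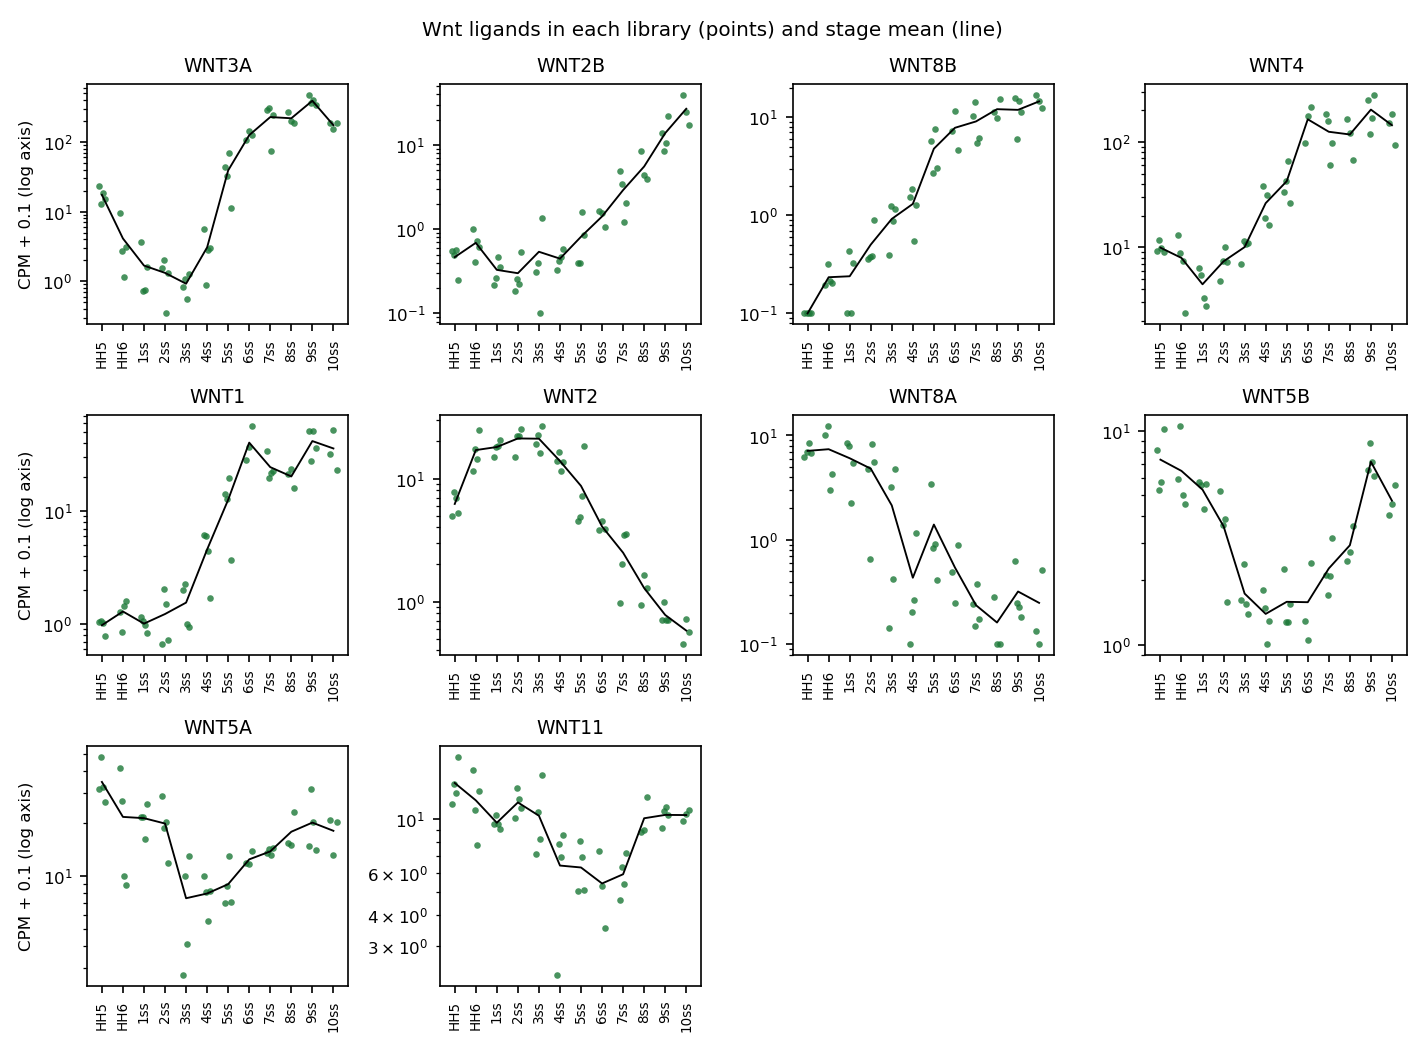
Points are libraries and the line joins the stage means of the 10 ligands with a mean of at least 5 CPM at 1 stage or more and a call in at least 1 comparison; the vertical axes show CPM plus 0.1 on a log scale, a range of its own for each gene. The line of WNT3A falls from HH5 to 3ss and lies above its HH5 mean from 5ss onwards. WNT4, WNT1, WNT2B and WNT8B are high late, WNT2 peaks at 2ss and 3ss, and WNT5B is lowest at 4ss.

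The other 9 ligands stayed below 5 CPM in every stage mean, and those named here fall outside the rule for genes described in full. WNT6, an ectodermal ligand in the chick, averaged 2.84 ± 1.53 CPM at HH8 and 0.862 ± 0.420 CPM at HH7 (SD, n = 11 and 12), a rise of 1.72 on the log2 scale (SE 0.27, adjusted p = 9.9e-06). WNT11B averaged 0.457 ± 0.0356 CPM at HH10 and 4.04 ± 1.21 CPM at HH5 (SD, n = 3 and 4; log2 fold change -3.13, SE 0.75, adjusted p = 0.0017). WNT7B averaged 1.01 ± 0.795 CPM at HH9 and 0.189 ± 0.268 CPM at HH8 (SD, n = 11 each; log2 fold change 2.37, SE 0.56, adjusted p = 0.0026). WNT7A was at least 6.84-fold higher at HH10 than at HH5, where no library had more than 3 reads. The calls of WNT3 in HH10 against HH5 and of WNT9B in HH6 against HH5 were lost without any of 6 and of 2 single libraries, and WNT10A and WNT16 were called in no comparison and did not pass the test over the stages.

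WNT9A repeated the early part of the WNT3A profile. WNT9A averaged 0.160 ± 0.146 CPM at HH7 and 3.11 ± 1.41 CPM at HH5 (SD, n = 12 and 4), a log2 fold change of -4.23 (SE 0.64, adjusted p = 3e-06), and it rose in HH8 against HH7 (1.99, SE 0.56, adjusted p = 0.011). In the RefSeq chicken gene table, WNT3A and WNT9A are neighbours with 0 protein-coding genes between them, as are WNT9B and WNT3 and likewise WNT10A and WNT6. By its group mean, WNT9B was at least 2.43-fold lower at HH7 than at HH5 (0.267, 0.392, 0.0385 and 0.568 CPM). Likewise, WNT3 was at least 4.37-fold higher at HH10 (0.906, 0.544 and 0.104 CPM) than at HH5. The values in HH5 replicate 3 and 10ss replicate 3 lay below the level of 3 reads in their libraries (0.116 and 0.155 CPM). The library kit keeps no strand, so reads from genes that overlap could not be told apart. Whether any of these neighbours overlap was not tested.

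Markers of several other tissues fell over the same span as the early ligands. In HH10 against HH5 all 9 measured markers of the streak and mesoderm and all 6 of the endoderm were lower, with summed levels of 29.2 to 80.2 CPM at HH10 and 145 to 336 CPM at HH5 for the streak and mesoderm list, and of 4.18 to 8.39 CPM at HH10 and 289 to 377 CPM at HH5 for the endoderm list. Of all genes, 9.8% were lower and 7.2% higher in this comparison. The 7 epidermis and placode markers summed to 394 to 446 CPM at HH10 and 1359 to 1973 CPM at HH5, with 5 lower, and the 4 heart markers to 3.11 to 7.04 CPM at HH10 and 59.6 to 93.1 CPM at HH5, with 4 lower. Not every such list fell, since of the 5 blood and vessel markers 2 were higher, with sums of 26.2 to 52.3 CPM at HH10 and 21.5 to 32.5 CPM at HH5, and of the 3 notochord and midline markers 1 was higher and 1 lower, with sums of 14.3 to 19.99 CPM at HH10 and 8.74 to 26.7 CPM at HH5. The streak and mesoderm sums did not fall from HH5 to HH6, where they were 289 to 410 CPM. FOXC2 had means of 173 CPM at HH6 and 95.9 CPM at HH5, and MEOX1 of 154 and 92.7 CPM. The sums were 20.4 to 56.6 CPM at HH9 and 30.4 to 75.4 CPM at HH8. Of this list, TBX6, MSGN1 and MIXL1 had at most 3 reads in 22, 22 and 29 of the 45 libraries. The part of these tissues in the changes of WNT8A, WNT2, WNT11B and the other falling genes was not tested. Of the neural crest markers, 7 of 8 rose in HH8 against HH7, where 4.5% of all genes were called higher. Of the 6 neural plate border markers 3 were higher in that comparison. Of the 7 neural plate markers 2 were higher and 1 lower, where 2.83% of all genes were called lower. The neural plate markers summed to 302 to 387 CPM at HH10 and 57.5 to 92.6 CPM at HH5. The largest part of the HH10 sum was EN1, with a mean of 204 CPM at HH10 and 1.24 CPM at HH5. PAX2 had means of 60.3 and 4.03 CPM. SOX2, SOX3 and LMX1B had means of 2.93, 21.5 and 11.3 CPM at HH10 and 2.37, 17.02 and 5.28 CPM at HH5. OTX2 and SOX21 had lower means at HH10 (30.7 and 1.92 CPM) than at HH5 (34.8 and 3.95 CPM). The border markers summed to 169 to 387 CPM at HH10 and 92.3 to 256 CPM at HH5. WNT1, WNT3A, WNT4 and WNT8B also rose in HH8 against HH7, and the part of these 3 lists of markers in those rises was not tested either.

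edgeR called 0 of 10 receptors in each of the 5 comparisons of neighbouring groups, with log2 fold changes from -0.67 to 1.05 over these comparisons. At an unadjusted p below 0.05, 1 was higher in HH6 against HH5, 1 lower in HH7 against HH6, 2 higher and 3 lower in HH8 against HH7, 1 higher and 2 lower in HH9 against HH8, and 1 higher in HH10 against HH9. These unadjusted counts have no share of all genes beside them, since none was worked out, and are not read as a change of the receptors. DESeq2's Wald test called FZD10 in HH8 against HH7 and in HH9 against HH8 and 0 receptors in the other 3. In HH10 against HH5, 2 receptors (20%) were higher (FZD10 and FZD3) and 2 (20%) lower (FZD7 and LRP5), beside 7.2% and 9.8% of all genes. With 10 genes, counts of 0 in the neighbouring comparisons are near the shares of all genes called there and are not read as a result about the receptors.

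FZD3, a Frizzled receptor known for its part in axon guidance and planar polarity, had 2112, 1216 and 1840.4 CPM at HH10 and 938, 893, 849 and 795 CPM at HH5. Every HH10 library was above every HH5 library, and the log2 fold change was 0.99 (SE 0.25, adjusted p = 0.0027). FZD10, a receptor known from the dorsal neural tube, had 4.32, 4.06 and 15.1 CPM at HH10 and 1.64, 1.22, 0.732 and 1.97 CPM at HH5. Its value in 10ss replicate 3 stood far above the other HH10 libraries, and although the groups did not overlap, the rise (log2 fold change 2.48, SE 0.70, adjusted p = 0.0073) was lost without that library (1.59, adjusted p = 0.15).

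LRP5, a co-receptor of the canonical branch, had 8.50, 8.24 and 5.91 CPM at HH10 and 14.5, 14.8, 15.8 and 14.4 CPM at HH5. All HH10 libraries were below all HH5 libraries (log2 fold change -0.97, SE 0.28, adjusted p = 0.0082), but the call was again lost without 10ss replicate 3 (-0.83, adjusted p = 0.068). The related co-receptor LRP6 passed neither the test over the stages (adjusted p = 0.098) nor that of any comparison, with stage means between 1.90 and 4.86 CPM. FZD7, with a highest stage mean of 2.81 CPM, fell in HH10 against HH5 (-1.23, SE 0.42, adjusted p = 0.031), a call lost without any of 5 single libraries (-1.34 to -1.08). FZD2 and FZD4 changed over the stages without a call in a comparison, and FZD1, FZD6 and FZD9 did neither.

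**Figure D4:**
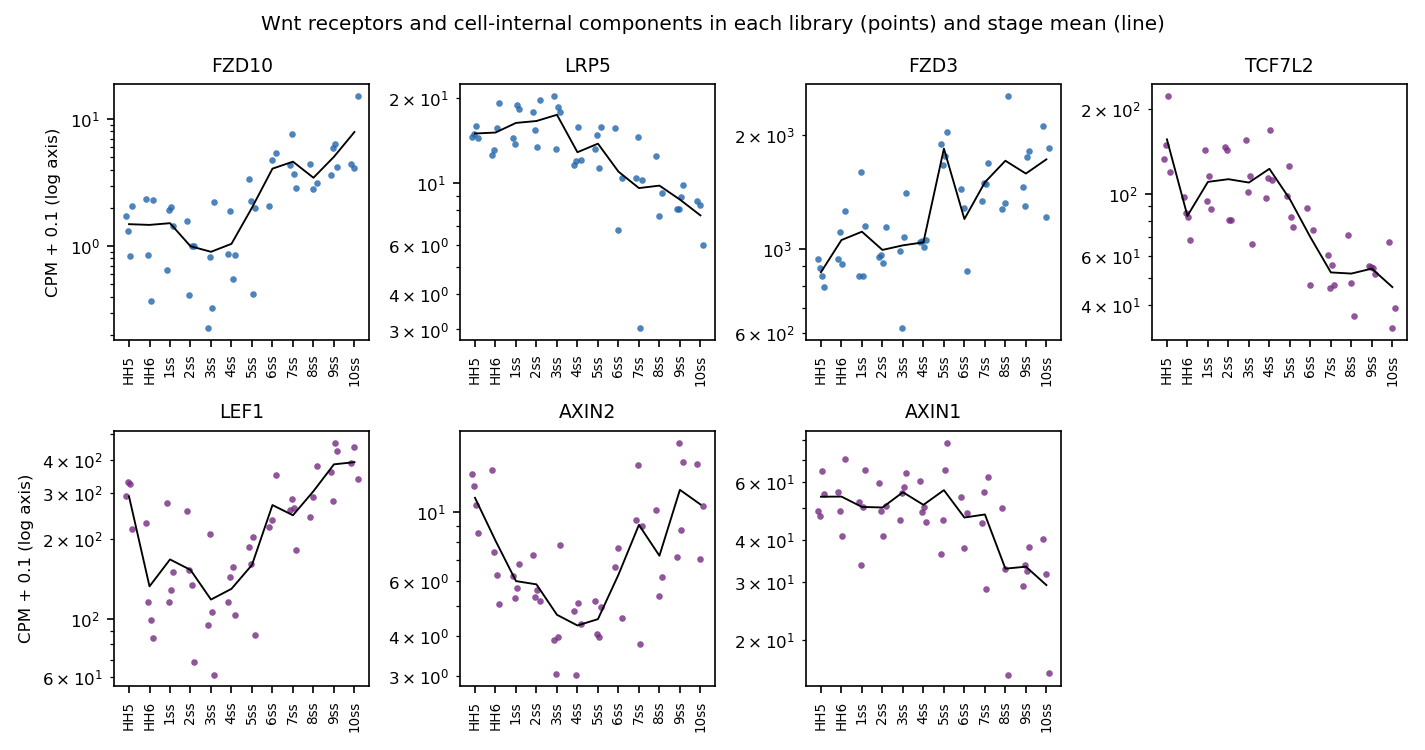
Points are libraries and the line joins the stage means of the 3 receptors and 4 cell-internal components that had a mean of at least 5 CPM at 1 stage or more and a call; the vertical axes show CPM plus 0.1 on a log scale, a range of its own for each gene. LEF1 and AXIN2 are high at HH5, low around 3ss and 4ss and high again at 9ss and 10ss, TCF7L2 is lower after 6ss, and 1 of the 3 points of FZD10 at 10ss stands apart.

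Of the 5 calls in HH6 against HH5, 4 were of secreted modulators. DRAXIN, a secreted Wnt antagonist known in the chick from the cranial neural crest and from axon guidance, had 28.2, 24.2, 24.6 and 22.4 CPM at HH5, 57.5, 103, 72.5 and 82.0 CPM at HH6, and 72.9 to 254 CPM (median 169) at HH7. It had 316 to 885 CPM (median 403) at HH8, 148 to 879 CPM (median 374) at HH9, and 89.6, 99.8 and 241 CPM at HH10. The groups did not overlap from HH5 to HH6 nor from HH7 to HH8, and the stage means were in rising order up to 714 ± 148 CPM at 6ss and were 199 ± 41.3 CPM at 9ss and 144 ± 84.8 CPM at 10ss (SD, with 3, 4 and 3 libraries).

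DRAXIN rose in HH8 against HH7 (log2 fold change 1.59, SE 0.24, adjusted p = 3.8e-06) and in HH10 against HH5 (2.53, SE 0.44, adjusted p = 2.1e-05). Its rise in HH6 against HH5 (1.66, SE 0.41, adjusted p = 0.021) was lost without any of 6 single libraries, with values between 1.51 and 1.77, and without the 8 libraries numbered 4. The rise in HH7 against HH5 (2.702, SE 0.39, adjusted p = 1.4e-06) kept its call in every setting. DRAXIN at 9ss and 10ss was thus above its HH5 level and below its HH8 level.

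SFRP2, a secreted Frizzled-related protein that binds Wnt ligands, had its highest stage mean at 4ss. It had 198, 176, 184 and 140.1 CPM at HH5, 251, 413, 430.5 and 446 CPM at HH6, 429 to 695 CPM (median 589) at HH7, 318 to 856 CPM (median 425) at HH8, 133 to 459 CPM (median 195) at HH9, and 165, 174 and 211 CPM at HH10. The HH6 and HH5 libraries did not overlap, HH6 replicate 1 was nearest to HH5, and the HH10 values overlapped those of HH5. SFRP2 rose in HH7 against HH5 (log2 fold change 1.72, SE 0.24, adjusted p = 9.3e-07) and fell in HH9 against HH8 (-1.21, SE 0.16, adjusted p = 5e-07), and its rise in HH6 against HH5 (1.14, SE 0.27, adjusted p = 0.016) was lost without any of 5 single libraries (1.03 to 1.28).

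FRZB, another member of this family, rose in HH7 against HH6 (0.81, SE 0.21, adjusted p = 0.033) and fell in HH9 against HH8 (-0.78, SE 0.15, adjusted p = 0.00017), calls that were lost without any of 4 and of 8 single libraries (0.74 to 0.87 and -0.84 to -0.71).

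SFRP1, of the same family, had 60.5, 83.9, 92.3 and 93.1 CPM at HH5, 43.0 to 122 CPM (median 70.7) at HH7, 14.4 to 64.5 CPM (median 33.5) at HH8, 6.47 to 16.7 CPM (median 12.7) at HH9, and 30.7, 18.6 and 9.22 CPM at HH10. The HH10 libraries were all below those of HH5, and the fall lay between HH7 and HH9. SFRP1 fell in HH8 against HH7 (log2 fold change -0.95, SE 0.20, adjusted p = 0.00075), in HH9 against HH8 (-1.66, SE 0.21, adjusted p = 1.8e-07) and in HH10 against HH5 (-2.07, SE 0.39, adjusted p = 7.5e-05). SFRP5, with stage means below 5 CPM, averaged 0.160 ± 0.0530 CPM at HH10 and 4.65 ± 1.22 CPM at HH5 (SD, n = 3 and 4; log2 fold change -4.78, SE 0.67, adjusted p = 4.6e-07).

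The R-spondins, secreted proteins that enhance Wnt signalling by keeping Frizzled receptors at the cell surface, did not move together. RSPO3 had 186, 165, 163 and 250.4 CPM at HH5, 47.7, 27.0, 82.8 and 96.5 CPM at HH6, 14.4 to 56.5 CPM (median 33.9) at HH7, 8.37 to 19.8 CPM (median 12.5) at HH8, 6.10 to 11.4 CPM (median 9.24) at HH9, and 12.3, 14.6 and 13.9 CPM at HH10. No HH6 library reached the lowest of HH5, and every HH10 library was far below it. RSPO3 fell in HH6 against HH5 (log2 fold change -1.59, SE 0.32, adjusted p = 0.0037), in HH8 against HH7 (-1.42, SE 0.19, adjusted p = 4.1e-07) and in HH10 against HH5 (-3.82, SE 0.39, adjusted p = 4.8e-10). Its fall in HH7 against HH6 (-0.91, SE 0.24, adjusted p = 0.036) was lost without any of 7 single libraries (-1.16 to -0.64).

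RSPO1 had 2.18, 2.79, 2.74 and 3.33 CPM at HH5 and 7.74, 12.2, 11.9 and 16.4 CPM at HH6, followed by 8.18 to 28.6 CPM (median 16.3) at HH7, 7.06 to 32.0 CPM (median 18.5) at HH8, 5.72 to 23.3 CPM (median 14.4) at HH9, and 34.5, 22.5 and 22.9 CPM at HH10. Its groups from HH6 to HH9 overlapped, and all of them lay above HH5. RSPO1 rose in HH6 against HH5 (log2 fold change 2.13, SE 0.40, adjusted p = 0.0022) and in HH10 against HH5 (3.27, SE 0.43, adjusted p = 1.2e-07). RSPO1 and RSPO3 were the Wnt genes whose calls in HH6 against HH5 were kept without each single library and without the 8 libraries numbered 4.

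RSPO2 rose later. It had 0.649, 1.26, 2.24 and 1.25 CPM at HH5, 0.300 to 2.92 CPM (median 2.24) at HH7, 3.09 to 10.9995 CPM (median 6.26) at HH8, 2.15 to 10.3 CPM (median 8.82) at HH9, and 17.4, 13.7 and 8.03 CPM at HH10. All HH8 libraries were above all HH7 libraries, and all HH10 libraries above all of HH5. RSPO2 rose in HH8 against HH7 (log2 fold change 1.79, SE 0.25, adjusted p = 1.1e-06) and in HH10 against HH5 (3.27, SE 0.46, adjusted p = 6e-07).

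WIF1 is a secreted inhibitor that binds Wnt ligands. It had 0.725, 0.348, 0.501 and 0.833 CPM at HH5, 0 to 0.904 CPM (median 0.0861) at HH8, 0.140 to 6.34 CPM (median 1.42) at HH9, and 3.94, 4.98 and 3.63 CPM at HH10. Within HH9 its stage mean was 0.353 ± 0.239 CPM at 7ss, 1.40 ± 0.603 CPM at 8ss and 5.03 ± 1.52 CPM at 9ss (SD, with 4, 3 and 4 libraries). WIF1 rose in HH9 against HH8 (log2 fold change 3.75, SE 0.56, adjusted p = 3.9e-06) and in HH10 against HH5 (2.78, SE 0.85, adjusted p = 0.014). DKK3, SFRP4 and NOTUM, the last an enzyme that removes the lipid of Wnt ligands, were called in no comparison and did not pass the test over the stages.

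**Figure D5:**
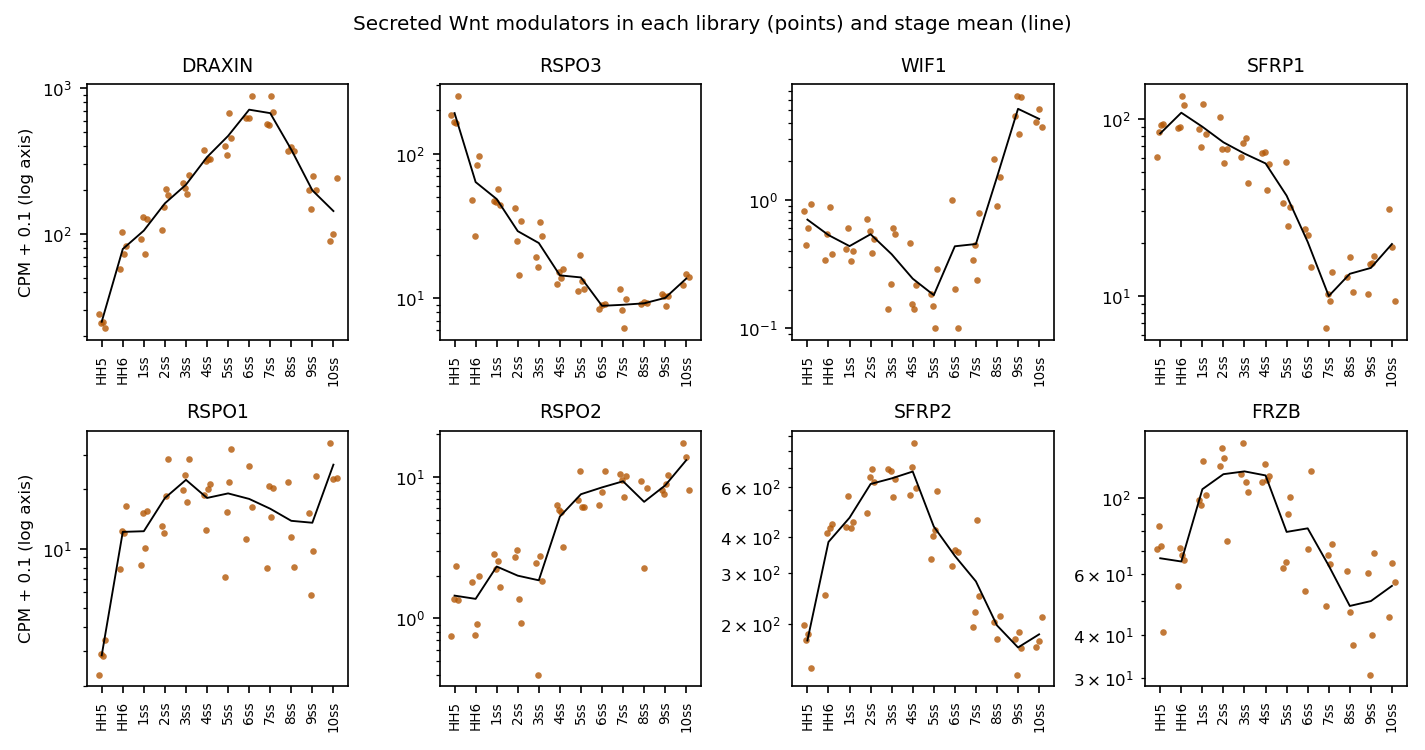
Points are libraries and the line joins the stage means of the 8 secreted modulators with a mean of at least 5 CPM at 1 stage or more and a call in at least 1 comparison; the vertical axes show CPM plus 0.1 on a log scale, a range of its own for each gene. DRAXIN peaks at 6ss and SFRP2 at 4ss, RSPO3 falls from HH5 to 6ss, RSPO1 is low at HH5 and RSPO2 until 3ss, and WIF1 is low until 7ss.

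Inside the cell, LEF1 and AXIN2 had lower group means from HH6 to HH8 than at HH5 and HH10. The lowest group mean of LEF1 was at HH6 (133 CPM) and that of AXIN2 at HH8 (4.84 CPM). LEF1 is a nuclear partner of beta-catenin, and AXIN2 is a scaffold of the destruction complex that is itself a widely used target gene of canonical signalling. LEF1 had 293, 329, 324 and 219 CPM at HH5, 231, 116, 98.9 and 84.5 CPM at HH6, 61.3 to 275 CPM (median 131) at HH7, 87.0 to 350.2 CPM (median 162) at HH8, 182 to 466 CPM (median 286) at HH9, and 391, 449 and 338 CPM at HH10. HH6 replicate 1 was the HH6 library within the HH5 range. LEF1 fell in HH7 against HH5 (log2 fold change -0.99, SE 0.28, adjusted p = 0.011) and rose in HH9 against HH8 (0.81, SE 0.22, adjusted p = 0.0076), where it was 0.72 to 0.95 over the libraries left out in turn and short of the fold threshold without 4 of them.

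AXIN2 had 13.1, 11.98, 10.4 and 8.44 CPM at HH5, 13.5, 7.33, 6.18 and 4.96 CPM at HH6, 2.94 to 7.75 CPM (median 5.40) at HH7, 2.92 to 7.53 CPM (median 4.73) at HH8, 3.68 to 16.5 CPM (median 8.93) at HH9, and 14.1, 6.94 and 10.3 CPM at HH10. Every HH7 library was below every HH5 library, and the HH10 libraries overlapped those of HH5. AXIN2 fell in HH7 against HH5 (log2 fold change -1.02, SE 0.26, adjusted p = 0.0044) and rose in HH9 against HH8 (0.96, SE 0.20, adjusted p = 0.00066), calls that were kept in every setting. In HH7 against HH5, 10 Wnt genes were lower, among them LEF1, AXIN2, WNT3A, WNT5A, WNT5B, WNT9A, RSPO3 and SFRP5. The 6 that were higher included the ligand WNT2, the R-spondin RSPO1, DRAXIN and SFRP2. Of all genes, 6.65% were lower and 2.41% higher. In the same comparison 5 of the 6 endoderm markers and 5 of the 9 streak and mesoderm markers were lower, and their part was not tested.

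TCF7L2, a further nuclear partner of beta-catenin, had 67.0, 32.9 and 38.8 CPM at HH10 and 133, 149, 223 and 119.7 CPM at HH5. All HH10 libraries were below all HH5 libraries. Its range was 36.3 to 71.1 CPM (median 54.0) at HH9 and 46.9 to 169 CPM (median 96.1) at HH8, so that these groups overlapped. TCF7L2 fell in HH9 against HH8 (log2 fold change -0.90, SE 0.16, adjusted p = 5.4e-05), where LEF1 rose, and in HH10 against HH5 (-1.76, SE 0.30, adjusted p = 1.4e-05).

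AXIN1, the other axin of the destruction complex, had 40.3, 31.5 and 15.8 CPM at HH10 and 49.1, 47.2, 64.7 and 55.2 CPM at HH5. It was lower in all HH10 libraries (-0.89, SE 0.29, adjusted p = 0.025), but the call was lost without any of 3 single libraries, most of all 10ss replicate 3 (-0.59, adjusted p = 0.22). CTNNB1, beta-catenin itself, was called in no comparison, with stage means between 115 and 171 CPM and an adjusted p of 0.074 over the stages, and the same held for TCF7L1 and PORCN, the enzyme that adds the lipid to Wnt ligands.

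Other genes of the pathway were read from 3 lists, of which 52 of 59 genes had a match among the genes tested. Of 15 feedback and target genes, 3 were higher and 1 lower in HH8 against HH7, 5 were higher and 1 lower in HH9 against HH8, and 3 were higher and 2 lower in HH10 against HH5, with a median log2 fold change of 0.48 in the last. The shares of all genes called higher and lower were 4.5% and 2.83%, 3.5% and 3.57%, and 7.2% and 9.8% in these comparisons. NKD1, a feedback inhibitor of the canonical branch, averaged 119 ± 14.9 CPM at HH10 and 20.8 ± 3.52 CPM at HH5 (SD, n = 3 and 4; log2 fold change 2.51, SE 0.28, adjusted p = 2.3e-09). APCDD1, a membrane inhibitor of Wnt signalling, averaged 40.8 ± 8.73 CPM at HH10 and 1.97 ± 0.345 CPM at HH5 (SD, n = 3 and 4; 4.37, SE 0.54, adjusted p = 3.6e-08). Both also rose in HH8 against HH7 and in HH9 against HH8.

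Unlike LEF1 and AXIN2, neither NKD1 nor APCDD1 was called in HH7 against HH5. In that comparison, where 2.41% of all genes were higher and 6.65% lower, 0 of the 15 genes were higher and 4 were lower. BAMBI, a decoy receptor of the BMP pathway that is also a Wnt target, was among them and averaged 1.75 ± 0.629 CPM at HH7 and 15.05 ± 2.11 CPM at HH5 (SD, n = 12 and 4; log2 fold change -3.10, SE 0.33, adjusted p = 2.2e-09), and so did MYC fall (-1.97, SE 0.36, adjusted p = 9.7e-05), a general growth regulator. Of 21 relay and secretion genes, which include the Dishevelled proteins, GSK3B and the Groucho co-repressors, 1 was higher in HH8 against HH7, and 2 were higher and 2 lower in HH10 against HH5, which are near the shares of all genes just given and are not read as a change of the list. Of 16 genes of non-canonical and planar polarity signalling, 4 were lower in HH10 against HH5 (ROR2, PRICKLE2, GPC3 and MUSK), and the median log2 fold change was -0.36 against -0.07 over all genes.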

How the data were processed

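The authors mapped the reads with STAR (2.7.2a in the submitters' processing notes, which also name the build GRCg6a) and deposited unnormalized counts, 1 table with 24356 genes and 1 with the 18525 whose reads exceeded 5 somewhere. They also deposited a scaled signal per gene; edgeR's TMM scaling of the counts gave its values within rounding. The Wnt genes were taken from the symbols in that table. Of the 50, 49 matched the RefSeq gene table (assembly GRCg7b) by gene ID, and no coordinates are given because the builds differ.

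The deposited counts were tested in R 4.3.3 with edgeR 4.0.16 (glmQLFit and glmQLFTest, limma 3.58.1) in a fit of all 45 libraries with 6 groups and, for change over the stages, with 12. HH7 against HH5 was added after the levels had been seen. Standard errors were worked back from the test, as the absolute fitted log2 fold change divided by the square root of the F statistic. They therefore add nothing independent to the p-values. SDs are over libraries, which within HH7, HH8 and HH9 include the differences between stages. The replicates are pools of embryos. A group with at most 3 reads in every library was given a bound, which divides the other group's mean by the level of 3 reads per library, for counting error only. The genes described in full were, within each role, those with a mean of at least 5 CPM at 1 stage or more and a call, ranked by the log2 ratio of highest to lowest stage mean (8 ligands, 5 receptors, 6 secreted modulators and 5 cell-internal components at most). The alternatives were DESeq2 1.42.0 (Wald test, size factors), other filters, other groupings, replicate blocks and fits without each library in turn. The tests were tried on simulated data. The members, lists and tests were chosen with earlier results of these data known. For 10ss the replicate numbers of the titles were used.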

Additional observations from a re-analysis of the deposited data

Results flagged for a closer look

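In the 9 stages with 4 libraries, the highest or lowest library of a group was compared with the others for the 25 genes described with their values, and 13 of 225 groups (5.78%) had a library farther from the rest than Dixon's 95% critical value for 4 libraries, where chance gives about 1 in 20. For WNT8A, a library stood apart in 4ss replicate 4 (1.07 CPM), in 5ss replicate 1 (3.36 CPM) and in 9ss replicate 1 (0.525 CPM), each above the others of its stage. For WNT8B, HH6 replicate 2 (0.219 CPM) and 2ss replicate 4 (0.787 CPM) stood above the others. SFRP2 was lower in HH6 replicate 1 (251 CPM), the HH6 library nearest to HH5 for this gene, and stood apart in 1ss replicate 2 (556 CPM). The other cases were WNT4 in 3ss replicate 1 (6.86 CPM), WNT1 in HH5 replicate 4 (0.681 CPM), WNT2 in 9ss replicate 2 (0.885 CPM), WNT5B in 1ss replicate 3 (4.21 CPM), LRP5 in 4ss replicate 3 (15.7 CPM) and RSPO2 in 5ss replicate 2 (11 CPM).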

How the results depend on the processing

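Of 86 calls of a gene in a comparison, 59 were kept in every setting, 65 in all settings other than leaving out 1 library and 62 without each library in turn, and 0 turned direction; 23 of 264 pairs that were not called were called in another setting. The counts that moved by over 1.5 times were all in 3 comparisons. In HH6 against HH5 (3 higher, 2 lower), 5 were higher with DESeq2's Wald test and with only the 2 groups compared and 1 without the 8 libraries numbered 4, and 4 were lower with DESeq2, 5 with only the 2 groups, 5 with 12 separate stages, 4 with a term for the libraries numbered 4 and 1 without them. In HH7 against HH6 (1 and 1), 2 were higher with DESeq2, with only the 2 groups and with 12 stages and 0 without the libraries numbered 4, and 0 were lower with only the 2 groups, 3 with 12 stages and 0 without the libraries numbered 4. In HH10 against HH9 (0 and 0), 1 was higher with 12 stages, and 1 was lower with DESeq2 and with 12 stages. The cause was not tested. With the replicate numbers as a block, 4 genes were lower in HH6 against HH5 (4 also with the numbers of the column names), and all other counts stayed within 1.5 times. Libraries numbered 1, 2 and 3 had a median r of 0.0361, 0.0239 and 0.00575, with single pairs between -0.322 and 0.378. The labels do not say that equal numbers pair libraries, so whether a block suits these libraries was not established.

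Without each library in turn, the higher and lower counts were 1 to 4 and 1 to 5 in HH6 against HH5, 0 to 1 and 0 to 1 in HH7 against HH6, 10 to 12 and 7 to 9 in HH8 against HH7, 10 to 13 and 5 to 8 in HH9 against HH8, 0 to 1 and 0 to 1 in HH10 against HH9, 13 to 15 and 7 to 11 in HH10 against HH5, and 5 to 6 and 8 to 10 in HH7 against HH5, and 35 to 41 genes changed over the stages. The fit without the 8 libraries numbered 4 was chosen after seeing the data. Depth limits the ligands with few reads, and HH10 has 3 libraries.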

Other observations

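FZD8, DKK2 and RSPO4 are in the deposited table without a symbol and were therefore not chosen by the rule; their names come from the RefSeq gene table. FZD8, a Frizzled receptor, averaged 0.401 ± 0.125 CPM at HH10 and 1.60 ± 0.254 CPM at HH5 (SD, n = 3 and 4; log2 fold change -1.97, SE 0.54, adjusted p = 0.0057), and it was also lower in HH9 against HH8 (-1.17, SE 0.30, adjusted p = 0.0045). RSPO4, an R-spondin, averaged 1.08 ± 0.474 CPM at HH10 and 6.24 ± 1.82 CPM at HH5 (SD, n = 3 and 4; -2.51, SE 0.51, adjusted p = 0.00022), a fall in the direction of RSPO3. DKK2 was called in no comparison by edgeR's quasi-likelihood test.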
